A study of Mus musculus with 9 samples.

Results

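The 9 genes described here encode costimulatory receptors of T cells: Cd28, Icos and Cd226 of the immunoglobulin superfamily, and Cd27, Tnfrsf4, Tnfrsf9, Tnfrsf18, Tnfrsf1b and Tnfrsf25 of the TNF receptor superfamily. They were chosen by name, and each was given the H3K27ac islands that overlap its window, which runs from the gene body to 50 kb upstream of the annotated start. All 9 are among the 22380 protein-coding genes of the mm9 annotation, and all 9 are among the 16487 of these with islands in both genotypes. They form 8 loci, since Tnfrsf4 and Tnfrsf18 lie side by side and share their islands.

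H3K27ac, an acetylated form of histone H3, was profiled by ChIP-seq in naïve CD8+ T cells from the mouse spleen, sorted as GFP+ TCRbeta+ CD62Lhi CD44lo-med cells. Every mouse, an adult of either sex on a C57BL/6 background, carried hCD2-Cre, a transgene most active in mature peripheral T cells, and a Rosa26 GFP allele that marks cells in which Cre has acted. The WT mice were Tcf7+/+ Lef1+/+ (4 H3K27ac samples and 1 input) and the dKO mice were Tcf7 fl/fl Lef1 fl/fl (3 H3K27ac samples and 1 input), so that dKO cells lack the transcription factors Tcf1 and Lef1. The deposited values are 1 island list per genotype, called on pooled replicates. No difference below therefore has a replicate check or a p-value, and the 95% intervals cover counting error only.

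Costimulation is the signal that a T cell needs beside the antigen receptor to become fully activated. CD28 and ICOS bind ligands of the B7 family and recruit PI3-kinase through their cytoplasmic tails, and CD226 (DNAM-1) is an adhesion receptor for CD155 and CD112. The TNF receptors bind trimeric ligands of the TNF family and recruit TRAF adaptors that switch on NF-κB. Naïve T cells display CD28 and CD27, whereas ICOS, OX40 (Tnfrsf4), 4-1BB (Tnfrsf9) and GITR (Tnfrsf18) rise on activation. H3K27ac marks active promoters and enhancers, and a wide, deep stretch of it over a gene usually accompanies transcription.

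The WT list held 65563 islands with 82668007 counts over 393 Mb, and the dKO list held 82213 islands with 57665047 counts over 429 Mb. Raw depth over islands was thus 210 counts per kb in WT and 134 in dKO. For this reason ratios were computed after dividing counts by the total of each list. Raw counts are printed so that the depth behind each ratio can be seen. Islands at the deleted genes do not report on exon deletion. The window of Tcf7 had a log2 dKO to WT ratio of 0.17 and that of Lef1 had -0.30, so both kept their islands in the list labelled dKO. Promoters of 6 T cell marker genes (Cd3d, Cd3e, Cd3g, Cd8a, Cd8b1, Cd5) lay in islands of 274 to 461 counts per kb in WT and 258 to 301 in dKO. Of the 16 markers of other cell types, 15 also had islands in both lists and Ncr1 of NK cells had none in either. Their promoters lay in islands of 108 to 342 counts per kb in WT and 86.6 to 248 in dKO, and the part of other cells in the values below was not tested. No member lies on chromosome X, whose genes had a median log2 ratio of -0.62 against -0.03 for all genes.

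All 9 genes kept H3K27ac in dKO cells. At 8 of the 9 the scaled count was lower in dKO than in WT, as it was at 52.6% of all genes, and Tnfrsf25, which encodes the receptor DR3, was higher. The 2 called lower at a ratio of at least 1.5 were Cd28 and Cd226 (2 of 9; 11.5% of all genes were called lower and 11.5% higher), and none was called higher. The median log2 ratio of the 9 genes was -0.30, against -0.03 over all genes. Tnfrsf4 and Tnfrsf18 both enter these counts and this median though they share islands. The median is the value of Tnfrsf18, and both windows together had -0.23. When counts were divided by the covered width, all 9 genes lay below 0, as did 79.4% of all genes, and none of the 9 was called (9.28% of all genes were lower and 0.425% higher). Their median was then -0.17, close to the -0.16 of all genes. The median of the 9 genes thus differed from that of all genes by counts and hardly per covered kb. The covered width was smaller in dKO at 7 of the 9 genes. The share of all genes with a smaller width was not computed, and the part of width in the count difference was not tested.

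**Figure D1:**
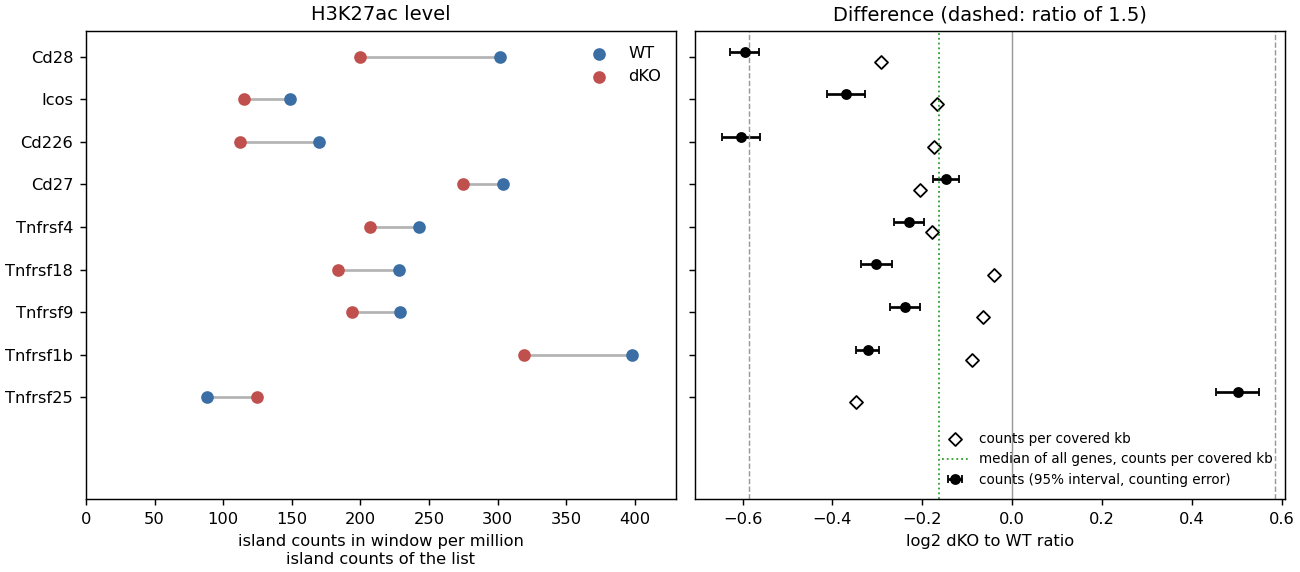
Left, island counts in each gene's window in CPM (island counts relative to the summed counts of that list), for WT (blue) and dKO (red), 1 pooled list per genotype. Right, the log2 dKO to WT ratio by counts, with its 95% counting interval, and by counts per covered kb. By counts Cd28 and Cd226 lie just past the dashed line of a 1.5-fold ratio and Tnfrsf25 lies on the other side of 0, whereas by counts per covered kb all 9 genes lie between -0.35 and -0.04.

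Levels were compared between genes only per covered kb. In WT the order of raw depth was Tnfrsf18 (382 counts per kb), Cd27 (365), Tnfrsf4 (356), Tnfrsf1b (299), Tnfrsf25 (288), Cd28 (286), Cd226 (220), Tnfrsf9 (214) and Icos (207). In dKO it was Tnfrsf18 (259 counts per kb), Cd27 (221), Tnfrsf4 (219), Tnfrsf1b (196), Cd28 (163), Tnfrsf25 (158), Tnfrsf9 (142), Cd226 (136) and Icos (129). Cd28 and Tnfrsf25, and Cd226 and Tnfrsf9, traded places between the lists, and without replicates the neighbours in this order cannot be ranked against a spread. The 4 genes with the highest mean depth over the islands of their windows were therefore TNF receptors in both lists, and Icos was lowest in both. Single islands ranked otherwise: the deepest WT island of Cd28 had 485 counts per kb, against 402 for that of Cd27. Tnfrsf4 and Tnfrsf18 share islands, among them the one at the promoters of B3galt6 and Sdf4 (1087 counts per kb in WT).

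CD28 binds CD80 and CD86 on antigen-presenting cells and is the main costimulatory receptor of naïve T cells. The window of Cd28 (mm9 chromosome 1, gene from 60773644 to 60830203, plus strand) held 14 WT islands (24976 counts, 87.4 kb) and 11 dKO islands (11532 counts, 70.8 kb). After scaling, that is 302 CPM in WT and 200 CPM in dKO, a log2 ratio of -0.60 (95% interval -0.63 to -0.56), and 11.1% of genes had a ratio at or below it. By counts per kb the log2 ratio was -0.29. Every island of either list in this window overlapped an island of the other list.

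The call for Cd28 rests on an island at the edge of the window. In WT a single island from 60826401 to 60841600 (6473 counts) crosses the end of the gene and enters the sum whole, whereas the dKO islands facing its outer part lie beyond the gene end and do not enter. With all islands of the touched regions counted the log2 ratio was -0.26, with counts clipped to the window -0.28, and neither passes 1.5. Within the gene the regions differed in direction. The region from 60797401 to 60820400, which holds the start site of the protein-coding transcripts, had 10500 counts across 22.2 kb of WT island and 5577 across 22.4 kb of dKO island. At almost equal width its depth was 473 and 249 counts per kb, a log2 ratio of -0.39 by counts (-0.44 to -0.35) and -0.41 per kb. The small region from 60793801 to 60795400, with 255 counts in WT and 104 in dKO, had the largest decrease of the window by counts, -0.77 on the log2 scale (-1.10 to -0.45), and 0.23 per kb. The weaker regions upstream of the gene also lay on both sides of 0. The region furthest upstream, from 60723801 to 60730400, was lower in dKO by counts (-0.25, interval -0.39 to -0.10). The region from 60751201 to 60763600 had 1734 counts in WT and 1510 in dKO, a log2 ratio of 0.32 (0.22 to 0.42), and the region over the first annotated start, that of a processed transcript, had 0.20 (0.09 to 0.32). Per kb, the 7 regions before the coding start region ran from -0.06 to 0.35, and only the coding start region and the region across the gene end (-0.41 and -0.11) lay below that range.

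ICOS, a relative of CD28, binds ICOS ligand and sustains activated T cells. The window of Icos (chromosome 1, 61034771 to 61057164, plus strand) held 8 WT islands (12293 counts, 59.4 kb) and 11 dKO islands (6635 counts, 51.6 kb). The scaled levels were 149 and 115 CPM, so that the log2 ratio by counts was -0.37 (-0.41 to -0.33) and per kb -0.17. The difference was concentrated at the start site. The region from 61027201 to 61040800, with 1 island in each list, had 3993 counts across 13.6 kb of WT island and 1758 across 11.8 kb of dKO island. Its log2 ratio was -0.66 (-0.74 to -0.58) by counts and -0.46 per kb, the lowest per kb among the start site regions of the 9 genes. Inside the gene, the region from 61044401 to 61049000 covered 4.60 kb in WT and 2.40 kb in dKO, so that its log2 ratio was -0.79 by counts but 0.15 per kb. An island of 151 counts from 61052601 to 61054400 was found in dKO alone. The islands furthest upstream, from 60980401 to 60988200, had 1082 counts in WT and 801 in dKO, a log2 ratio of 0.09 whose interval (-0.05 to 0.22) includes 0. Between these and the start, the region from 61015201 to 61021200 was narrower in dKO (2.8 kb against 6 kb), with a log2 ratio of -0.68 by counts and 0.42 per kb. Per kb, Icos was thus lower in dKO at its start and on both sides of 0 elsewhere.

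CD226 promotes the adhesion and cytotoxicity of T and NK cells. The window of Cd226 (chromosome 18, 89366823 to 89439593, plus strand) held 14054 counts across 63.8 kb of WT island and 6454 across 47.4 kb of dKO island, with 18 islands in each list. The scaled levels were 170 and 112 CPM, a log2 ratio of -0.60 (-0.65 to -0.56), while per kb it was -0.17. This call lies close to the threshold, and it was lost under both other scalings (-0.53 and -0.58), with counts clipped to the window (-0.55), with 100 kb upstream (-0.46), with islands assigned by their centre (-0.54) and with all islands of the touched regions (-0.54). At the start site, a single WT island of 21.2 kb with 5625 counts faced 5 separate dKO islands that covered 16.2 kb with 2479 counts. This region, from 89361001 to 89382400, had a count ratio of -0.66 (-0.73 to -0.59) on the log2 scale and -0.27 per kb. The dKO island over the start itself, from 89366001 to 89369400, kept 266 counts per kb, whereas the other 4 had 99 to 150 counts per kb. The single WT island at the Cd226 promoter thus faced 5 dKO islands, the deepest of them at the start site. Raw depth over islands was lower in the dKO list (134 counts per kb against 210). The part of this depth in the division was not tested.

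Within the gene body of Cd226, the deepest WT island, from 89407001 to 89412600, had 352 counts per kb in WT and 211 in dKO, a log2 ratio of -0.44 by counts and -0.22 per kb. The largest decrease upstream was at 89328201 to 89330400, with 438 counts in WT and 136 in dKO and a count ratio of -1.17 on the log2 scale (-1.44 to -0.89), or -0.52 per kb. The 3 WT islands of all 9 windows that had no dKO counterpart all belonged to Cd226. Of its 18 WT islands 15 overlapped a dKO island, near the 85.1% of all WT islands that did. These 3 islands were small, with 303, 122 and 247 counts. In the opposite direction, the region from 89342001 to 89347000 was wider in dKO (4.80 kb against 1.80 kb) and had a log2 ratio of 0.72 by counts but -0.70 per kb. The WT island of 303 counts, from 89339201 to 89342000, ends directly before the dKO island of this region and shares no base with it. Its counts therefore enter neither ratio of the region. Of the 9 genes Cd226 had the lowest ratio of covered width, -0.43 on the log2 scale.

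**Figure D2:**
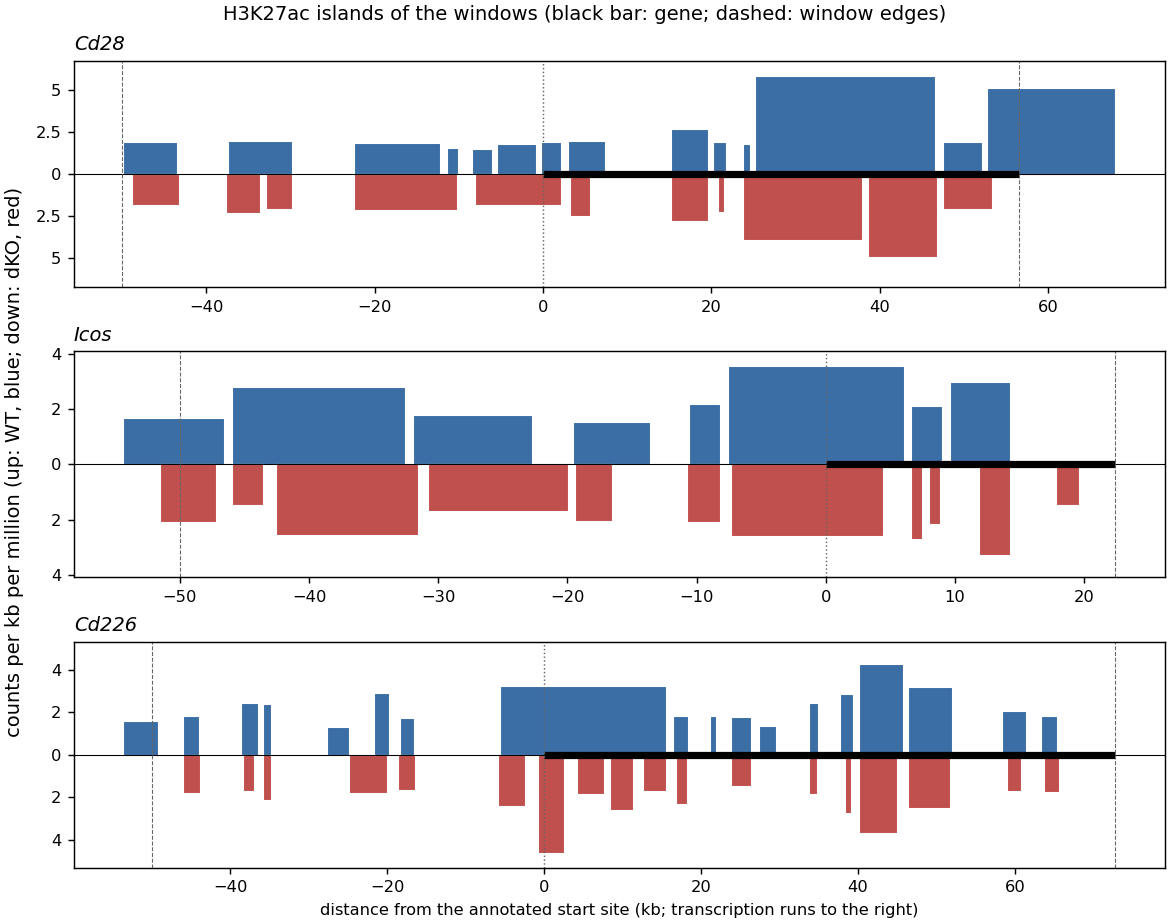
Islands in the windows of Cd28, Icos and Cd226 by distance from the annotated start in kb (horizontal) and depth in CPM per kb (vertical), WT upward in blue and dKO downward in red, 1 pooled list each. At Cd28 the deep WT islands lie over the gene and across its end, at Icos the deepest WT island lies over the start, and at Cd226 the single WT island at the start faces 5 dKO islands.

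CD27, the receptor for CD70, supports the survival of naïve and memory T cells. The gene is short (chromosome 6, 125182640 to 125187028, minus strand), and its islands are shared with the promoters of Vamp1 and Tapbpl, so its window describes the neighbourhood rather than the gene alone. The window held 25145 counts across 68.8 kb of WT island and 15845 across 71.6 kb of dKO island, a scaled level of 304 and 275 CPM. The log2 ratio was -0.15 (-0.18 to -0.12) by counts and -0.20 per kb, the smallest count difference of the 9. In WT 4 islands made up the region from 125160601 to 125228200, and in dKO a single island of 65.4 kb joined most of the same stretch, from 125162801 to 125228200. The depth of the whole region was 387 and 231 counts per kb, a log2 ratio of -0.15 by counts and -0.23 per kb. Since this long dKO island is counted whole in any window that touches it, the direction of the count ratio depended on the window. With 10 kb upstream it was 0.50, and with islands assigned by their centre it was 1.29. The only other region of the window, from 125234401 to 125241600 near Tuba3a, had a count ratio of 0.18 on the log2 scale (0.02 to 0.35) and 0.04 per kb.

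OX40 and GITR are receptors of activated and regulatory T cells. Their genes, Tnfrsf4 (chromosome 4, 155387952 to 155390721, plus strand) and Tnfrsf18 (155400273 to 155403004, plus strand), lay in the same island. It ran from 155384801 to 155410600 in WT (11750 counts over 25.8 kb) and from 155385401 to 155410600 in dKO (7602 counts over 25.2 kb). The log2 ratio of this shared island was -0.11 (-0.15 to -0.07) by counts and -0.07 per kb. Both windows together held 20052 counts across 56.4 kb of WT island and 11929 across 54.4 kb of dKO island, or 243 and 207 CPM, with a log2 ratio of -0.23 (-0.26 to -0.20) and -0.18 per kb. For Tnfrsf18 alone the log2 ratio was -0.30 by counts and -0.04 per kb. The promoter domain of these genes thus differed less between the genotypes than the rest of their window.

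The largest difference in any of the windows lay upstream of Tnfrsf4, in an intron of the neighbouring gene Sdf4. The region from 155376001 to 155380600 (positions -11951 to -7352 from the Tnfrsf4 start) held 1032 counts across 4.60 kb of WT island and 157 across 2 kb of dKO island. Its depth was 224 and 78.5 counts per kb, so that the log2 ratio by counts was -2.20 (-2.44 to -1.96) and per kb -0.995. It is 1 of 2 regions of all 9 windows that passed a ratio of 1.5 by counts per kb. The window also holds the promoters of B3galt6 and Sdf4, in a region from 155360401 to 155369200 with 567 counts per kb in WT and 294 in dKO at an equal width of 8.20 kb. That region had a log2 ratio of -0.43 (-0.50 to -0.36), so part of the window's difference belongs to promoters of other genes. The largest increase, from 155355001 to 155359600, had 376 counts in WT and 350 in dKO, or 0.42 on the log2 scale (0.21 to 0.63), and -0.20 per kb.

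The part of the upstream region that kept an island in dKO, from 155377801 to 155379800, holds all 4 matches of the region to CTTTGA, the core of the Tcf/Lef motif, searched on both strands (TCAAAG on the other). Of the stretches of the same length at the centres of all merged regions, 96.9% hold at least 1 match, so the matches do not set it apart. The sequences around the first and the last match are shown because this is the region with the largest difference, on the plus strand of mm9 with the match in capitals.
Tnfrsf4 upstream, chr4:155377840-155377939: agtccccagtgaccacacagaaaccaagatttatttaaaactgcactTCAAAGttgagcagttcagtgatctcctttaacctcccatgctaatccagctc
Tnfrsf4 upstream, chr4:155378993-155379092: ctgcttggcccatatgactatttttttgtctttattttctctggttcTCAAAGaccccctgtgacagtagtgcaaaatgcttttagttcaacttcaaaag

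4-1BB, the product of Tnfrsf9, is induced on activated CD8+ T cells and binds 4-1BB ligand. The window of Tnfrsf9 (chromosome 4, 150288671 to 150320211, plus strand) held 8 WT islands (18923 counts, 88.6 kb) and 7 dKO islands (11192 counts, 78.6 kb). The scaled levels were 229 and 194 CPM, so that the log2 ratio by counts was -0.24 (-0.27 to -0.20) and per kb -0.07. A WT island of 5900 counts, from 150310201 to 150342200, crosses the gene end and enters the sum whole. With counts clipped to the window the count ratio was -0.06, with islands assigned by their centre -0.05. With all islands of the touched regions it was -0.11. It was -0.36 with 10 kb upstream, -0.28 with islands of at least 5 CPM and -0.52 without islands at promoters of other genes. The region over the start, from 150281001 to 150310200, also covers a promoter of Park7. It had 306 counts per kb in WT and 184 in dKO, so that the log2 ratio by counts was -0.13 (-0.18 to -0.08) and per kb -0.22. Of the flanking regions, the one from 150242601 to 150247000 was narrower in dKO (2.2 kb against 4.2 kb), with a log2 ratio of -0.85 by counts and 0.08 per kb, and the one from 150236801 to 150241800 was higher at an equal width of 4.60 kb, at 0.33 (0.15 to 0.51). Tnfrsf9 was thus lower at its start and mixed around it.

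TNFR2, encoded by Tnfrsf1b, is the TNF receptor without a death domain and costimulates T cells. Its window (chromosome 4, 144803366 to 144836773, minus strand) had a scaled level of 398 CPM in WT and 319 CPM in dKO. It held 3 WT islands (32924 counts, 110 kb) and 6 dKO islands (18379 counts, 93.6 kb), so that the log2 ratio by counts was -0.32 (-0.35 to -0.30) and per kb -0.09. A single WT island of 95.4 kb, from 144776801 to 144872200 with 30823 counts, ran over the whole gene and a promoter of Vps13d. In dKO this stretch was divided, and its largest piece, from 144825001 to 144861600 with 8709 counts, lay over the Tnfrsf1b start. Over the complete merged region, with 3 WT and 8 dKO islands, the log2 ratio was -0.20 by counts and -0.14 per kb, with 299 and 190 counts per kb. The long WT island over Tnfrsf1b thus faced several dKO islands, with a smaller difference per kb than by counts. The part of the lower raw depth of the dKO list in this division was not tested.

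DR3, encoded by Tnfrsf25, carries a death domain and costimulates T cells on binding TL1A. Tnfrsf25 (chromosome 4, 151490043 to 151494228, plus strand) was the only member with a higher scaled count in dKO. Its window held 7319 counts in 3 islands over 25.4 kb in WT and 7229 counts in 5 islands over 45.8 kb in dKO. The scaled levels were 88.5 and 125 CPM, a log2 ratio of 0.50 (0.45 to 0.55), below the ratio of 1.5, and 86.2% of genes lay at or below it. By counts per kb the direction turned, to -0.35, the lowest of the 9 genes. The largest gain in width lay upstream, in the neighbouring gene Plekhg5. The region from 151465001 to 151483400 covered 9 kb with 1622 counts in WT and 18.4 kb with 2136 counts in dKO, so that the log2 ratio by counts was 0.92 (0.82 to 1.01) and per kb -0.11. At the start itself, the region from 151484201 to 151511200, which also covers a promoter of Espn, had 352 counts per kb in WT and 197 in dKO, which gave a count ratio of -0.05 on the log2 scale (-0.10 to 0.01) and -0.32 per kb. That merged region includes islands beyond the window. Inside the window, the islands at the start were 1 in WT (4617 counts, 11.8 kb) and 2 in dKO (3846 counts over 15.4 kb and 195 counts over 2.4 kb), so the covered width was larger in dKO there too. With counts clipped to the window the log2 ratio of Tnfrsf25 was 0.19, and with all islands of the touched regions it was 0.22.

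**Figure D3:**
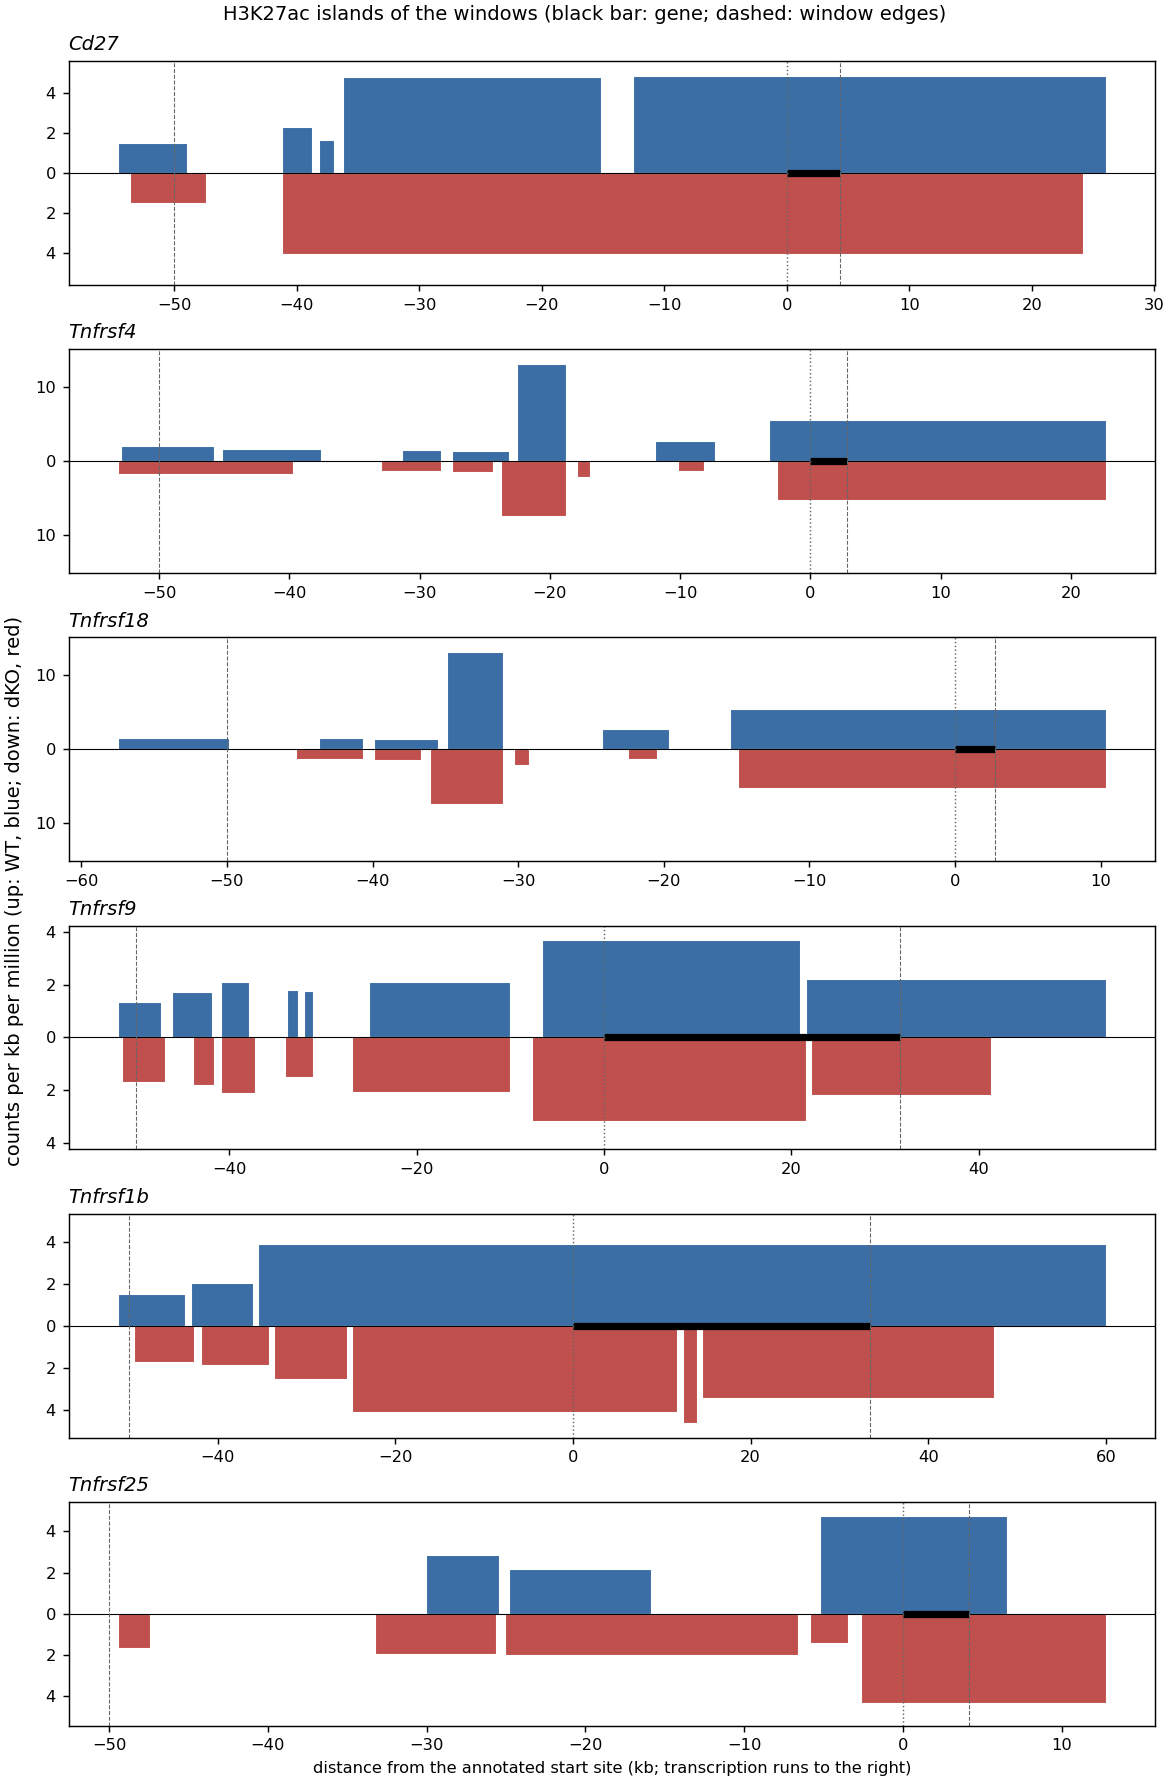
Islands in the windows of the 6 TNF receptor genes by distance from the annotated start in kb and depth in CPM per kb, WT upward in blue and dKO downward in red, 1 pooled list each. The island shared by Tnfrsf4 and Tnfrsf18 is nearly the same in both lists, the 95.4 kb WT island over Tnfrsf1b is divided in dKO, and the islands upstream of Tnfrsf25 are wider in dKO.

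Promoter sequences of RefSeq (table build GRCm38.p6) were at hand for 6 of the 9 genes, and each was found once in mm9. The 250 bases before a start site are shown for the 4 genes with an entry in which this stretch meets no annotated exon. The second entries of Tnfrsf9 and Tnfrsf25 meet exons and are not shown. The Tnfrsf9 stretch shown lies downstream of the annotated start used above (150288671). The stretches shown lie in start site regions from -0.32 per kb (Tnfrsf25) to -0.14 per kb (Tnfrsf1b). Capitals mark matches, on either strand, to CTTTGA (Tcf/Lef, in 13.8% of 32851 promoters of this length), CCGGAA (ETS, 12%) and TGTGGT (RUNX, 14.0%), and each is written in the direction of transcription.
Tnfrsf25, chr4:151489793-151490042, plus strand: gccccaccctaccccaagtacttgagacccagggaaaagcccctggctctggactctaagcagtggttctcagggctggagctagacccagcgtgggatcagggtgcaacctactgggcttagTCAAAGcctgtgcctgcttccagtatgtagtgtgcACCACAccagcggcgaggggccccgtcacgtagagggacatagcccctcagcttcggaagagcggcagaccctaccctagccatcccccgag
Cd27, chr6:125187046-125187295, minus strand: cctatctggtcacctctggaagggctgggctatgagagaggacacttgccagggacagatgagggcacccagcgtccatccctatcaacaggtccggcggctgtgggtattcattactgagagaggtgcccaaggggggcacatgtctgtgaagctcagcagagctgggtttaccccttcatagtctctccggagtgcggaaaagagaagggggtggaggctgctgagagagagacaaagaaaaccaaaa
Tnfrsf9, chr4:150294014-150294263, plus strand: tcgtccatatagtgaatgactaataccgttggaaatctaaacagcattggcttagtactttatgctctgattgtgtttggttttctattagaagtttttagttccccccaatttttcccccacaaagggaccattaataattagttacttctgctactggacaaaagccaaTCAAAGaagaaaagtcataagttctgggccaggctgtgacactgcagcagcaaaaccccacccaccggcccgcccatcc
Tnfrsf1b, chr4:144836774-144837023, minus strand: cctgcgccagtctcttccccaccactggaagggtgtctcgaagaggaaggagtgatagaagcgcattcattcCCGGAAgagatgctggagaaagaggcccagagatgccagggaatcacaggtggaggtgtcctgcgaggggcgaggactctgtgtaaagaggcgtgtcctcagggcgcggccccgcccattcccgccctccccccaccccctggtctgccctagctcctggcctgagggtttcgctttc

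The Tnfrsf25 stretch held 1 Tcf/Lef and 1 RUNX match, that of Tnfrsf9 held 1 Tcf/Lef match, which is also a match to the longer form CTTTGAT (3.21% of promoters), that of Tnfrsf1b held 1 ETS match and that of Cd27 held none of the 3. In these stretches the CpG count ran from 4 in Tnfrsf9 and 5 in Cd27 to 8 in Tnfrsf25 and 12 in Tnfrsf1b, with a median of 6 over all promoters. The second entry of Tnfrsf25 held 14 CpG, and the second entries of Tnfrsf9 and Tnfrsf25 held none of the 3 matches. The matches are of letters in short windows and were not read as binding sites.

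Across the 9 windows there were 55 distinct merged regions, of which 49 (89.1%) had islands in both lists, against 59.1% of all 76633 regions. Islands of both lists were shared to the same degree. In WT 63 of 66 islands (95.5%, 87.5 to 98.4%) overlapped a dKO island, against 85.1% of all WT islands, and in dKO 64 of 67 (95.5%, 87.6 to 98.5%) overlapped a WT island, against 73.8% of all dKO islands. By counts 11 of the 49 regions were lower in dKO at a ratio of 1.5 (22.4%; 14.6% of all regions) and 2 were higher (4.08%; 11.1% of all regions). By counts per kb 2 were lower (4.51% of all regions) and 0 were higher (1.17%). Below 0 lay 32 regions by counts (65.3%; 56.6% of all regions) and 35 per kb (71.4%; 53.4% of all regions). The 3 regions found in WT alone were those of Cd226 (12.8% of all regions were found in WT alone). The 3 found in dKO alone (28.1% of all regions) lay at Icos, upstream of Tnfrsf4 (155370001 to 155371000, 120 counts) and upstream of Tnfrsf25 (151440601 to 151442600, 191 counts). The 2 called per kb were the region upstream of Tnfrsf4 and the Cd226 region from 89342001 to 89347000, which leaves out a WT island that abuts it. The costimulatory loci were therefore largely marked at the same places in both genotypes.

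The ratio per kb differed with the depth of a region in WT, for all regions and for those of the 9 genes. Over all regions the median log2 ratio per kb was 0.04 under 200 counts per kb, -0.17 from 200 to 300 and -0.37 from 300 upward. In the 9 windows it was -0.04 over 30 regions, -0.35 over 11 and -0.22 over 8. All 8 of the deepest regions, among them those over the starts of Cd27, Tnfrsf4 with Tnfrsf18, Tnfrsf9 and Tnfrsf25 and over the coding part of Cd28, lay below 0, as did 90.8% of all regions that deep. Below 0 lay 18 of the 30 regions of the lowest class (42.1% of all such regions) and 9 of the 11 of the middle class (77.0%). Among regions whose covered width differed by at most 10% the median was -0.14 over 18 regions of the 9 genes, 13 of them below 0, and -0.03 over all 15012, 56.2% of them below 0. Since WT depth is also the denominator of the ratio, the classes were formed again by the mean of the WT depth and the scaled dKO depth. The medians were then 0.03, -0.14 and -0.35 over all regions, and -0.05 over 34, -0.18 over 8 and -0.23 over 7 regions of the 9 genes. The part of depth in the ratios of the costimulatory genes was not tested.

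**Figure D4:**
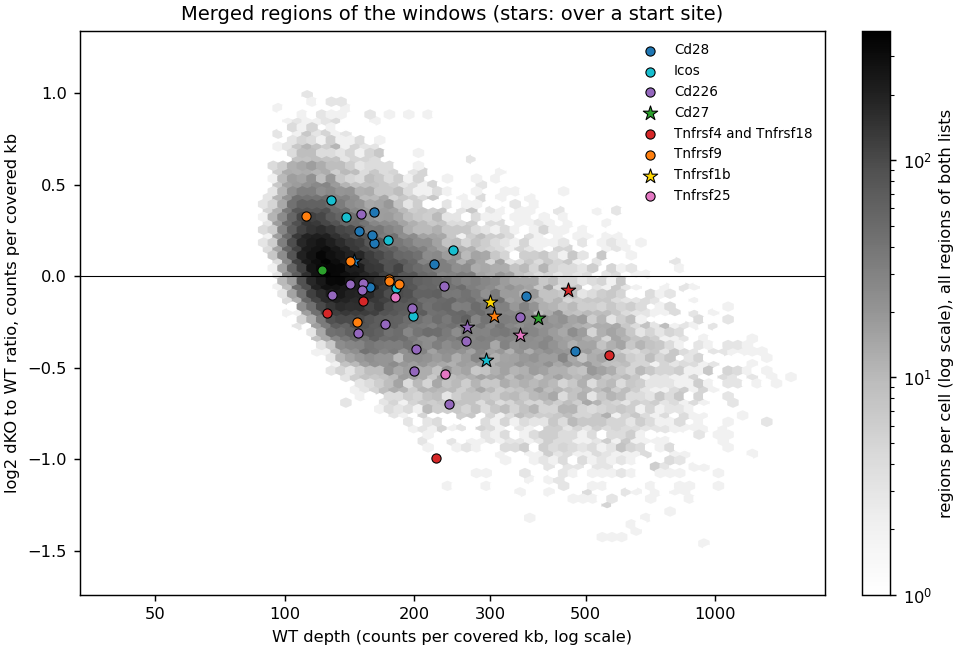
Merged regions with islands in both lists by WT depth in counts per kb (horizontal, log scale) and log2 dKO to WT ratio of counts per kb (vertical). Grey shows those of the 45322 regions within the plotted range (shade: regions per cell, log scale). Colour shows the regions of the 9 genes, with stars for regions over an annotated start. Over all regions the median drops with depth from 0.04 to -0.37. The regions of the 9 genes have medians of -0.04, -0.35 and -0.22 in the same classes, and among them the region upstream of Tnfrsf4, at -0.995, lies lowest.

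Genes that act with the 9 receptors were examined through 5 lists drawn up by function, and 86 of 87 listed genes were found, all with islands in both lists. At a ratio of 1.5 by counts, 11 of the 86 (12.8%) were lower in dKO and 8 (9.30%) higher, near the 11.5% of all genes in each direction, and the median log2 ratio was -0.02. Per covered kb 4 of the 86 were lower and 0 higher, against 9.28% and 0.425% of all genes. The 4 were Nfkb2 at -1.29, Chuk at -0.96, Ppp2r1a at -0.74 and Cd40 at -0.65. No gene lower by counts was thus also lower per kb at this ratio. The counts of the lists below are by counts. Among 17 other TNF receptors 3 were lower (17.6%) and 4 higher (23.5%). The most extreme were Tnfrsf19 at -1.38 and Tnfrsf8, which encodes CD30, at -0.81, and Ngfr, the neurotrophin receptor, at 2.47 and Tnfrsf21 at 1.08. Ngfr had 1457 counts across 10.4 kb of WT island and 5649 across 56.4 kb of dKO island, and its ratio per kb was 0.04. Receptors of the same superfamily thus had count ratios on both sides of 0.

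Of 17 ligands 5 were lower (29.4%) and 1 was higher (5.88%), against 11.5% of all genes in each direction. Tnfsf15, which encodes the DR3 ligand TL1A, had 4732 counts in WT and 1092 in dKO, a log2 ratio of -1.596 (-1.69 to -1.50) and -0.17 per kb. Tnfsf18, the GITR ligand, had -0.91, whereas Tnfsf14, which encodes LIGHT, had 0.78 and Tnfsf10, which encodes TRAIL, had 0.32. Of 25 genes of the TRAF and NF-κB pathway 3 were lower and 1 higher, with Tank, a TRAF-binding protein, at -1.04 and the kinase gene Ripk1 at -0.94 lowest, and Nfkbie, an inhibitor of NF-κB, at 0.69 and Siva1, which binds CD27, at 0.51 highest. By counts per kb Tank had 0.04 and Ripk1 0.26, so these 2 differences also turned with the covered width.

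Of 20 genes that signal downstream of CD28 and CD226, none was lower and 1 was higher at this ratio. Ppp2r1a, a subunit of the phosphatase PP2A, had -0.32 by counts and -0.74 per kb, Gab2, an adaptor, had 0.84 by counts and -0.36 per kb, and Akt1 had 0.42 by counts and -0.35 per kb. Among the 7 further receptors listed (Ctla4, Btla, Pdcd1, Tigit, Cd96, Cd200r1 and Crtam) none was lower and 1 was higher (14.3%). Pdcd1, which encodes PD-1, had -0.19 (-0.23 to -0.15) and Ctla4, which lies between Cd28 and Icos and competes with CD28 for its ligands, had -0.17 (-0.20 to -0.13). Cd96, which shares the ligand CD155 with CD226, had 0.61 (0.57 to 0.65) by counts and 0.02 per kb. Cd226 and Cd96, which share that ligand, thus had count ratios past 1.5 in opposite directions, and both ratios were smaller per kb.

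**Figure D5:**
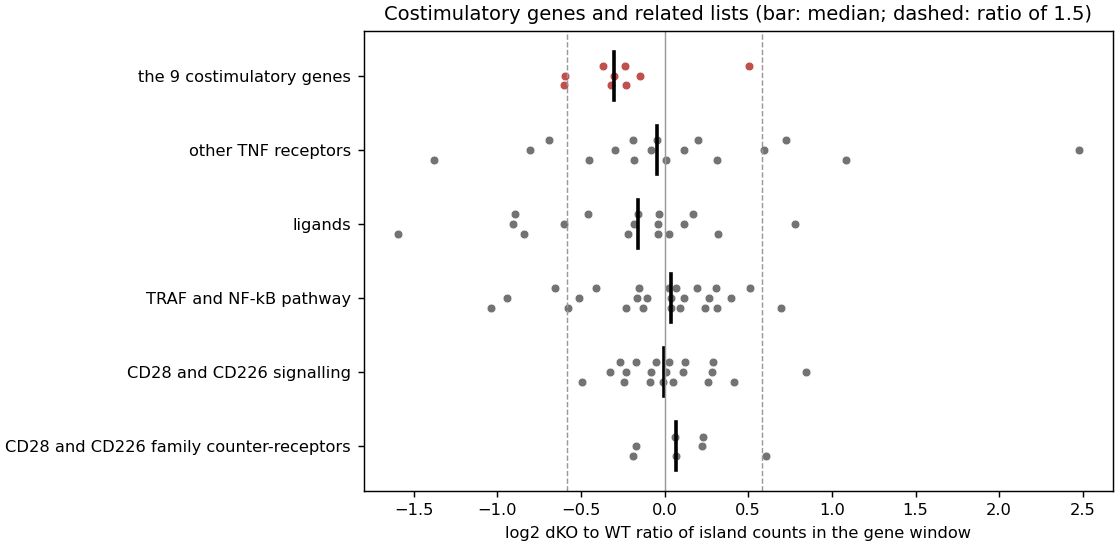
Log2 dKO to WT ratio of island counts in the gene window for the 9 costimulatory genes (red) and for 86 related genes in 5 lists (grey), each point a gene and each black bar the median of its row. The 9 genes have a median of -0.30 and lie within -0.60 to 0.50, whereas the lists have medians between -0.16 and 0.07 and reach from -1.596 to 2.47.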

How the data were processed

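H3K27ac ChIP-seq was performed on naïve CD8+ T cells, with 4 WT and 3 dKO samples. According to the methods and the submitters' processing notes, the authors aligned reads with Bowtie2 (version 2.2.5) to mm9, retained those of mapping quality above 10, pooled the replicates and called islands with SICER (version 1.1; window 200 bp, gap 400 bp, FDR 0.01). The deposited counts are raw whole-number read counts per island, scaled neither for depth nor for width. A place without an island has no count, and the input samples, which carry no values here, were not analysed.

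Positions are given from 1 in mm9, and genes were taken from GENCODE vM1. Counts of all islands that overlap a window by at least 1 bp were summed whole, divided by the total of the list and compared as a log2 dKO to WT ratio, with a 95% Wilson interval. Reads are not independent molecules, so intervals cover counting error only. A ratio of 1.5 either way was called. No test was run, since each genotype is a single list. The members and lists were chosen with earlier results of these data known. All 9 genes are named, and in their windows the region over the start, the regions with the largest increase and decrease (at least 200 counts in both lists together), the island with the most counts in 1 list alone, and, per related list, the 2 genes highest and lowest. The result of 1 gene under this rule is not reported here. Other islands, the related genes called per covered kb, the classes of depth (WT or mean) and the equal-width regions were chosen after their values were seen. Python 3.11.15 and matplotlib 3.10.9 were used. On simulated counts over 16114 genes, windows doubled or halved were recovered in 100% of 310 cases, and none of 15357 unchanged windows was called. The simulation kept the WT island boundaries and added counting noise only. It checks the computation and cannot speak for calls that depend on island edges or on the spread between replicates.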

Additional observations from a re-analysis of the deposited data

How the results depend on the processing

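No paired analysis was possible because replicates were pooled before islands were called, and leaving out a replicate was not possible for the same reason. Of the 9 genes, the 2 called (Cd28 and Cd226) became 0 when scaling used the counts of regions in both lists or set the median of all genes to 0, by counts per covered kb, with counts clipped to the window, with all islands of the touched regions (chosen after seeing the data) and at a ratio of 2. They were 3 with 10 kb upstream (Tnfrsf25, higher, added). With islands centred in the window the 2 called were Cd27 (higher, 1.29) and Tnfrsf25 (lower, -0.59), each opposite in direction to its main value. The calls became 1 with 100 kb upstream (Tnfrsf25, higher) or with islands of at least 5 CPM (Cd226). They became 4 without islands at promoters of other genes (of 8, Cd27 having no value), with Tnfrsf1b higher and Tnfrsf25 lower. At the lower of the other threshold ratios they were also 4. The median log2 ratio of -0.30 was -0.23 scaled by regions in both lists, -0.17 per kb, -0.36 with 10 kb and -0.22 with 100 kb upstream, -0.26 clipped, -0.24 with islands centred in the window, -0.45 without islands at other promoters and -0.23 with all islands of the touched regions. With 50% reciprocal overlap the share of islands found in the other list was 65.2% in WT and 62.7% in dKO, and with at least 5 CPM it was 87.0% in WT. The cause was not tested.

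Of 98 values of single genes under these alternatives 87 were below 0 and 11 above. Cd27, Tnfrsf25 and Tnfrsf1b took both signs. Without islands at other promoters, where few islands are left, Tnfrsf1b had 3.65 and Tnfrsf25 -3.06. Depth limits these comparisons to counting error, and the spread between mice is unknown.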
